A study of Mus musculus with 36 samples.

Results

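The 33 genes described here serve the breakdown of glucose and the cellular response to low oxygen, and they were followed through a mouse blood cell culture in which Taf1, a subunit of the general transcription factor TFIID, was deleted. They were taken by name, as the rows of 33 listed symbols among 24411 gene rows, and each had a row in both deposited tables. Of these genes, 20 act in glucose uptake, glycolysis or lactate export, and 13 belong to the hypoxia response. All 33 passed the filter on low values in the macrophage course, and 32 passed it in the granulocyte course, where Eno2 was not tested.

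Glycolysis turns glucose into pyruvate through a chain of enzymes that yields ATP without oxygen, and lactate dehydrogenase restores the cofactor that keeps the chain running. When oxygen is low, prolyl hydroxylases of the EGLN family slow down, the HIF1A protein escapes degradation, and the HIF complex binds the core letters ACGTG or GCGTG near its targets, which include glycolytic genes as well as Bnip3, Vegfa and Egln3. Neutrophils and macrophages are known for their heavy use of glycolysis. HIF1A is controlled largely at the protein level, which RNA-seq does not measure.

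Bone marrow stem and progenitor cells labelled TAF1 KO or WT were grown in culture, and total RNA was sequenced from 36 libraries, 12 groups of 3. For each genotype there was a day 0 group and a group grown to day 3 in mouse SCF and IL-3. Cells of the same day 3 culture were then divided between a macrophage course, with GM-CSF and M-CSF to day 5 and M-CSF alone to day 7, and a granulocyte course, with SCF, IL-3 and G-CSF to day 5 and G-CSF alone to day 7. Every cytokine was at 50 ng/ml in IMDM with horse serum, and knockout and control cells received the same cytokines. The labels give neither the way in which Taf1 was deleted, nor the part removed, nor whether the libraries of a group came from separate mice, so the p-values below measure only the spread between these libraries.

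Values are TPM, transcripts of a gene relative to all transcripts of its library, and differences are knockout minus control on the log2(TPM + 1) scale from limma, where a gene passed at a Benjamini-Hochberg adjusted p under 0.05 over all genes tested. From 10289 to 11226 genes reached 1 TPM in each library, TPM keeps no trace of sequencing depth, and the lowest Pearson r across genes between replicates of a group lay between 0.989 and 0.996. Taf1 itself ranged from 5.94 to 10.29 TPM in knockout libraries and from 9.62 to 16.32 TPM in control libraries, and it was lower at 5 of the 6 stages. Its difference was -0.61 at day 0, -0.99 and -0.80 at days 5 and 7 of the macrophage course and -0.85 and -0.47 at those days of the granulocyte course (adjusted p of 0.00120 or less), while -0.17 at day 3 did not pass (adjusted p = 0.0711). The median difference of all genes was -0.23 and 0.12 at days 5 and 7 of the macrophage course and 0.17 at day 7 of the granulocyte course. Median-of-ratios scaling, which divides each library by the median ratio of its genes to their geometric mean over libraries, made those medians -0.02, -0.01 and -0.01. Macrophage and neutrophil markers were present in every culture group, B and T cell markers stayed below 1 TPM, and of 5 eosinophil markers 3 to 5 were lower in knockout cells at each stage. These are bulk libraries, in which fewer cells of a type and less RNA per cell cannot be told apart.

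The proximal promoters of 4 of the genes are shown because all hold the core letters that HIF binds. Ankrd37, Bnip3 and P4ha2 passed at 1 or more stages. Pgk1 passed at none, though its differences were below 0 at every stage in culture, and no test compared these genes with each other. Each run gives the 250 bases before the RefSeq transcription start, 5′ to 3′ on the gene's strand in GRCm38.p6, and capitals mark ACGTG or GCGTG on either strand, so that CACGT and CACGC are the same letters read on the other strand and some matches overlap. As GENCODE M21 draws the genes, the P4ha2 window lies in an intron of longer transcripts. The Ankrd37 window lies in an intron of 1 longer transcript, and its last bases fall in the first exon of shorter ones. The last bases of the Bnip3 window fall in a first exon, and the Pgk1 window lies before the gene.
Ankrd37, chr8:45999851-46000100, minus strand: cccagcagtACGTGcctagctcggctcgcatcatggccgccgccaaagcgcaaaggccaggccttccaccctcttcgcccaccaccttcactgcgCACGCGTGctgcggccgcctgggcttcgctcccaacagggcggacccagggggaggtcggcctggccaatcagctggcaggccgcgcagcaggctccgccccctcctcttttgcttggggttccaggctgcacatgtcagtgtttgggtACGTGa
Bnip3, chr7:138909507-138909756, minus strand: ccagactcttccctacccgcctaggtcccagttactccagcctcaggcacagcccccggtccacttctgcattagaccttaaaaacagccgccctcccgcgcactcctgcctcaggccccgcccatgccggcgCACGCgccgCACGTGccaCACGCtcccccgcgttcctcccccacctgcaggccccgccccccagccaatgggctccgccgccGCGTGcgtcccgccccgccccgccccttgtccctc
P4ha2, chr11:54100674-54100923, plus strand: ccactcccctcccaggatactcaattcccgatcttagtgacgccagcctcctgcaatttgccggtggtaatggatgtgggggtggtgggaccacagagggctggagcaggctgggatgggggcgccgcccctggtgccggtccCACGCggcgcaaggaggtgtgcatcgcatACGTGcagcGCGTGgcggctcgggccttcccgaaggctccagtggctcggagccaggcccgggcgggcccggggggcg
Pgk1, chrX:106186850-106187099, plus strand: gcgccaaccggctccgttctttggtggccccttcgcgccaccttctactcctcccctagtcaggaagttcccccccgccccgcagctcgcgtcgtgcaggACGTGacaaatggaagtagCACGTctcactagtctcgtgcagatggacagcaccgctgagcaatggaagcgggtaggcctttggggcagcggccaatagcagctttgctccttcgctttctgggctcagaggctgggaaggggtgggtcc

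A RefSeq window of 300 bases, 250 before to 50 after the start, was found for 31 of the 33 genes, all except Bnip3l and Ndrg1. ACGTG stood in a window of 23 of the 31 genes (74.2%), against 5886 of all 27025 genes with a window (21.8%). GCGTG stood in windows of 20 of the 31 (64.5%), against 35.2% of all genes. At least 1 of these motifs was found for 28 of the 31 (90.3%), against 46.7% of all genes. A gene counted if any of its windows matched, and some genes have several. Of the 47 windows of these genes 57.4% held ACGTG, against 19.6% of all windows, and 53.2% held GCGTG, against 32.4%. ACGTG is also part of the E-box CACGTG, which other factors bind. TATAAA, the letters of a TATA box, stood in windows of 3 of the 31 (9.68%), against 15.7% of all genes. Each motif was searched on both strands, and a match is a description of the letters only. The genes were listed by name and include known targets of HIF, while all genes with a window were taken whether expressed here or not. These shares are therefore no test of the module.

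Libraries of 1 replicate number often stood apart for these genes. At day 5 replicate 1 was the highest of its group in all 4 groups for 28 of the 33 genes (84.8%), against 14.0% of all genes tested. Ankrd37, a target of HIF of unsettled function, had 33.1, 3.17 and 3.39 TPM in day 5 knockout libraries of the macrophage course, against 93.2, 9.32 and 12.2 TPM in the controls. Replicate 1 was far above its neighbours in either genotype. At day 7 control replicate 3 was the lowest control in both courses for 30 of the 33 genes (90.9%), against 14.2% of all genes, and knockout replicate 1 was the highest knockout of the macrophage course for 25 (75.8%), against 22.2%. The median standard deviation within a group was 0.38 on the log2(TPM + 1) scale for the 33 genes and 0.16 for all genes tested. What made these libraries differ was not tested, and counts below are also given without them. The libraries were picked from the values of these same genes, so counts without them are descriptions and no separate support.

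**Figure D1:**
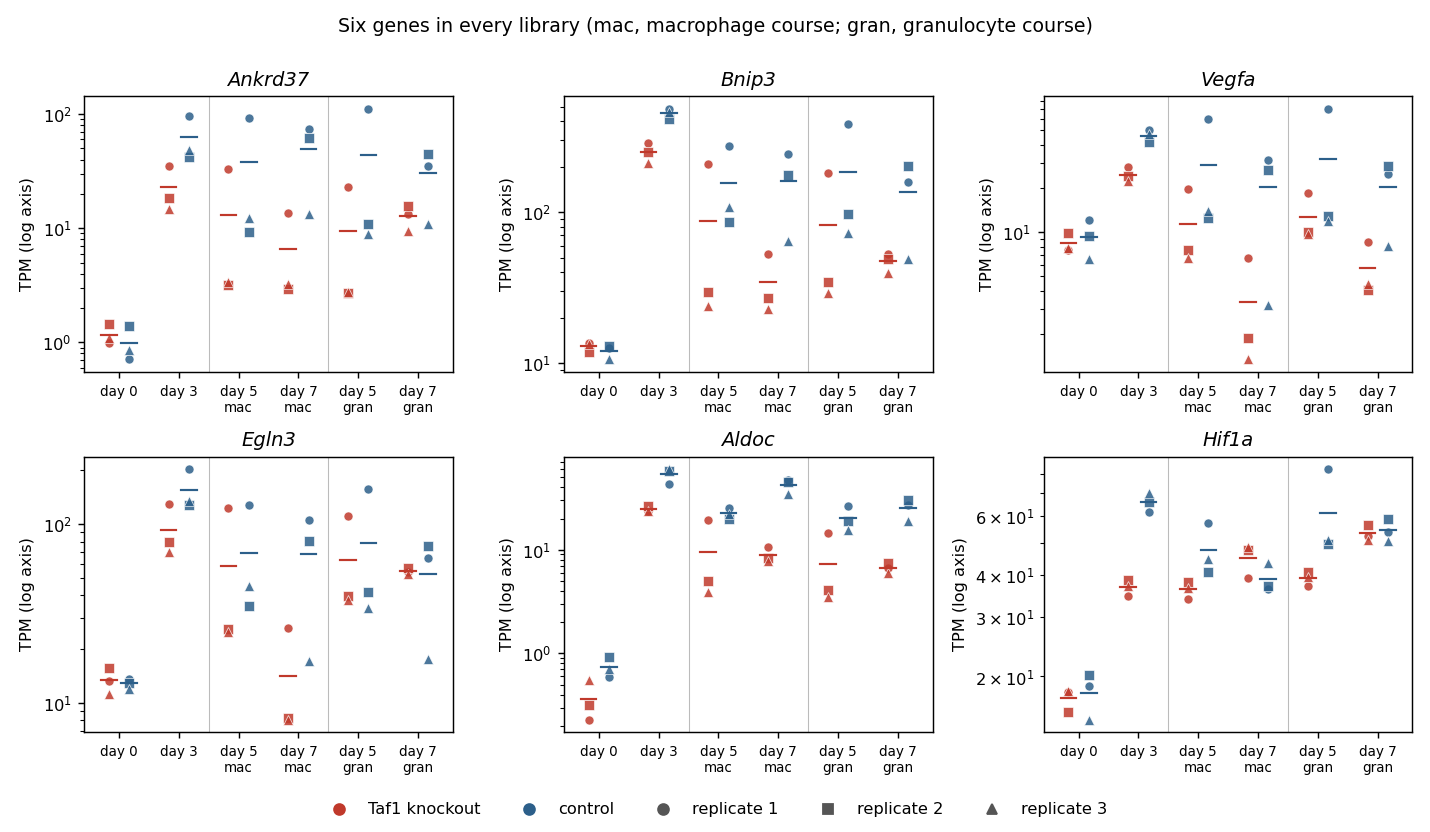
TPM on a log axis in every library for 6 of the genes, with day and course on the x axis, knockout libraries left of controls, a shape for each replicate number and a bar at the group mean. Replicate 1 lies above the other day 5 libraries for Ankrd37, Bnip3, Vegfa and Egln3, while Aldoc is lower in every knockout library than in any control of its stage from day 3 on.

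Across the libraries' deviations from their group means, 36 points that share a library, the genes moved together to different degrees. With Ankrd37, chosen here for its wide range, Pearson's r was 0.97 for Slc2a1, 0.96 for Egln3 and 0.95 for Bnip3 and Aldoa. It was 0.27 for Hif1a, 0.09 for Pfkm and -0.53 for Pfkfb4. These values describe the libraries and carry no test.

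The first 3 days in SCF and IL-3 brought the module up in both genotypes. In knockout cells 28 of 33 genes rose from day 0 to day 3 and none fell (58.8% of all genes changed, 22.8% upward). In controls 31 rose and 1 fell (73.0% of all genes changed, 33.3% upward). With median-of-ratios scaling 29.6% of all genes rose and 29.3% fell in knockout cells, and 29 of the 33 rose. The median change of the 33 genes was 1.48 in knockout cells and 1.71 in controls, against -0.12 and -0.07 for all genes. Pfkm, the muscle-type phosphofructokinase, was the gene that fell in controls, by 0.72 ± 0.17 (SE, adjusted p = 0.000744). Hk1, the broadly expressed hexokinase, passed in neither genotype.

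Slc16a3, which exports lactate, went up by 4.67 ± 0.47 in knockout cells (adjusted p = 5.90e-08) and by 4.25 ± 0.47 in controls (adjusted p = 7.43e-08). Bnip3, a mitochondrial protein that triggers mitophagy, had 13.7, 11.8 and 13.4 TPM at day 0 and 289, 252 and 212 TPM at day 3 in knockout cells. The control libraries had 12.5, 12.9 and 10.6 TPM at day 0 and 483, 411 and 461 TPM at day 3. Day 3 lay far above day 0 in either genotype, with a change of 4.16 ± 0.58 in knockout cells (adjusted p = 5.03e-06) and 5.12 ± 0.58 in controls (adjusted p = 1.08e-07). P4ha2, a collagen prolyl hydroxylase subunit, had 0.09, 0 and 0.04 TPM at day 0 in knockout libraries and 0.06, 0.08 and 0.16 TPM in controls, and averaged 3.53 ± 0.548 TPM at day 3 in knockout cells and 14.3 ± 1.80 TPM in controls (SD, n = 3 each). It was close to absent at the start in both genotypes. Hif1a, the oxygen-regulated subunit of HIF, rose by 1.05 ± 0.12 in knockout cells (adjusted p = 4.45e-07) and by 1.83 ± 0.12 in controls (adjusted p = 4.26e-11).

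**Figure D2:**
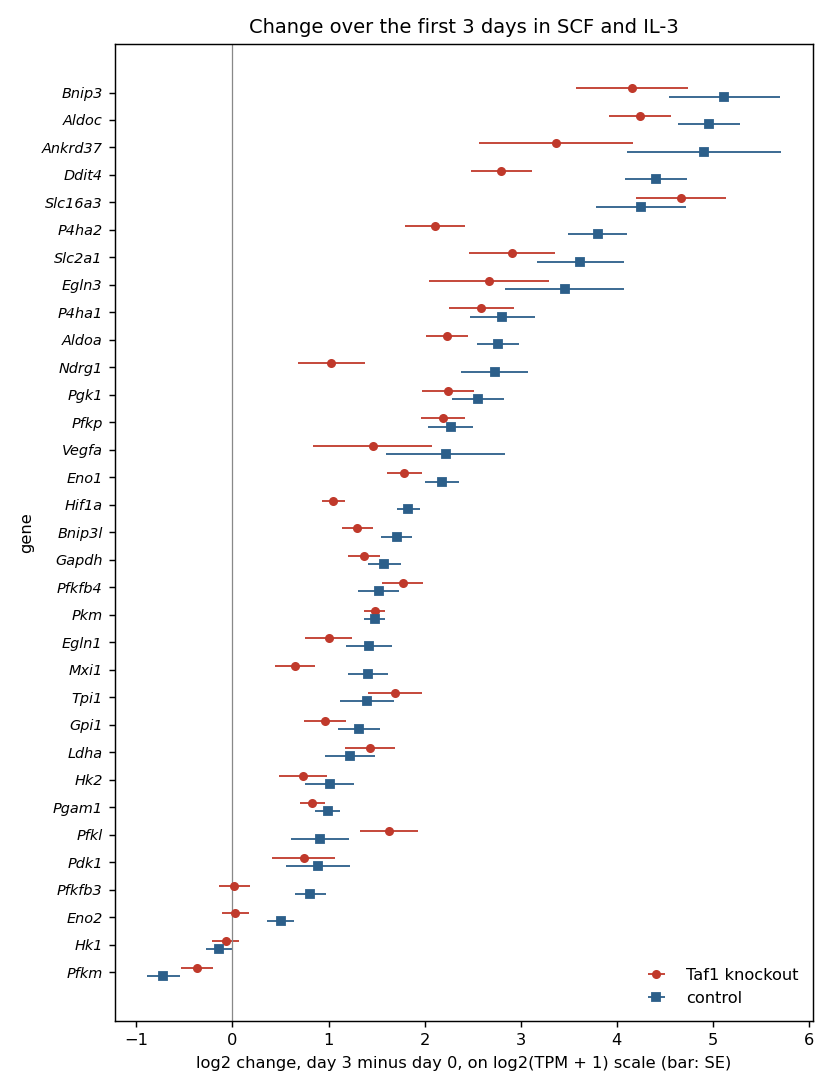
Change from day 0 to day 3 on the log2(TPM + 1) scale for each of the 33 genes, with knockout cells as circles above controls as squares and bars of 1 standard error. Most points lie right of 0 in both genotypes, and P4ha2, Ndrg1, Ddit4 and Hif1a rose less in knockout cells.

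Whether the first 3 days changed a gene differently in the knockout was tested as the knockout difference at day 3 minus that at day 0. It passed for 5 of 33 genes, all negative, against 32.3% of all genes (17.3% negative). P4ha2 gave -1.68 ± 0.44 (adjusted p = 0.00649), Hif1a gave -0.78 ± 0.17 (adjusted p = 0.00211), and Pfkfb3, Ndrg1 and Ddit4 were the others. With only the 4 groups of this difference fitted 1 of 32 genes tested was positive and 13 were negative, where 14.9% of all genes were positive and 20.4% negative.

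At day 0 none of the 33 genes was higher and 2 were lower, where 13.1% of all genes were higher and 10.2% lower (23.3% in either direction). Pfkm had 17.7, 12.3 and 17.9 TPM in knockout libraries, against 21.0, 25.5 and 22.8 TPM in controls, and its difference was -0.52 ± 0.17 (adjusted p = 0.0313). Pfkfb4, which sets the level of the phosphofructokinase activator fructose 2,6-bisphosphate, had 3.53, 6.05 and 5.69 TPM in knockout libraries, against 11.1, 7.08 and 6.48 TPM in controls, and its difference was -0.59 ± 0.21 (adjusted p = 0.0439). The groups did not overlap for either gene, but both calls rest on few libraries: without control replicate 2 0 genes passed (2 had an unadjusted p under 0.05), and without control replicate 3 or any 1 knockout library 1 gene passed. With median-of-ratios scaling 15.2% of all genes were lower and 10.7% higher, and 3 of the 33 were lower. With only the day 0 groups fitted 4 of 30 genes tested were higher and 3 lower, where 11.6% of all genes were higher and 9.86% lower.

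At day 3 all 13 hypoxia genes had a difference below 0, and 4 of them were lower in knockout cells, Hif1a, P4ha2, Ndrg1 and Ddit4. Of the 20 glycolysis and transport genes 4 passed, Aldoa, Aldoc, Eno2 and Pfkfb3, and 7 had a difference above 0 that did not pass. No gene of the 33 was higher in the fit of the whole course. The 8 that were lower stand beside a background in which 26.7% of all genes were lower and 26.5% higher at this day (53.2% in either direction). The median difference was -0.32 for the 33 genes, -0.82 for the 13 and -0.20 for the 20, against -0.01 for all genes.

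Hif1a (chr12:73901375-73947530, plus strand, mm10) had 34.8, 38.8 and 37.0 TPM in knockout libraries, against 61.7, 65.9 and 70.1 TPM in controls. The libraries were tight within each genotype and far apart between them, and the difference was -0.82 ± 0.12 (adjusted p = 1.28e-05). P4ha2 had 3.69, 2.92 and 3.98 TPM in knockout libraries, against 12.5, 14.4 and 16.1 TPM in controls. Every knockout library was well below every control, with a difference of -1.76 ± 0.31 (adjusted p = 8.66e-05). Its partner P4ha1, which forms the same kind of enzyme, had 99.2, 80.4 and 76.0 TPM in knockout libraries, against 99.9, 90.5 and 100.3 TPM in controls. The groups overlapped and the difference of -0.19 ± 0.34 did not pass (adjusted p = 0.654).

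Ndrg1, a stress-induced gene that HIF activates, had 98.9, 71.2 and 70.2 TPM in day 3 knockout libraries, against 189, 139 and 163 TPM in controls, a difference of -1.03 ± 0.35 (adjusted p = 0.0185). Ddit4, an inhibitor of mTORC1 signalling, had 52.5, 39.5 and 29.9 TPM in knockout libraries, against 97.2, 71.5 and 71.1 TPM in controls, a difference of -0.98 ± 0.32 (adjusted p = 0.0147). Neither pair of groups overlapped. Ankrd37 had 35.4, 18.5 and 14.9 TPM in knockout libraries, against 97.3, 41.7 and 48.6 TPM in controls. Its knockout libraries were all below its controls, yet the spread was wide and the difference of -1.40 ± 0.80 did not pass (adjusted p = 0.149).

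Among glycolytic genes at day 3, both aldolases, which split fructose 1,6-bisphosphate, were lower. Aldoc (chr11:78322968-78327781, plus strand, mm10) had 23.7, 26.4 and 23.9 TPM in knockout libraries, against 42.7, 57.7 and 59.9 TPM in controls. Aldoa, the main aldolase of these cells, had 2941, 2737 and 2686 TPM in knockout libraries, against 4741, 4245 and 4493 TPM in controls. No library of one genotype reached the other, and the differences were -1.07 ± 0.32 for Aldoc (adjusted p = 0.00816) and -0.69 ± 0.22 for Aldoa (adjusted p = 0.0122).

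Tpi1, which interconverts the triose phosphates that aldolase makes, had 1893, 1812 and 1754 TPM in knockout libraries at day 3, against 1112, 1181 and 1257 TPM in controls. Ldha, the muscle-type lactate dehydrogenase subunit, had 2204, 2252 and 2133 TPM in knockout libraries, against 1581, 1678 and 1771 TPM in controls. For both the knockout libraries all lay above the controls, while the differences of 0.62 ± 0.28 (adjusted p = 0.0679) and 0.39 ± 0.26 (adjusted p = 0.223) did not pass. Their standard errors pool the spread over every group of the course, and the libraries of day 3 lay closer together than that. Tpi1 and Ldha are named here because of their values. Pfkfb3, the inducible partner of Pfkfb4, had 17.2, 16.9 and 17.1 TPM in knockout libraries, against 24.5, 22.2 and 24.9 TPM in controls, with a difference of -0.46 ± 0.16 (adjusted p = 0.0170). Eno2, the neuronal enolase, was under 1 TPM in every library of the day, and its call concerns that low level. It was tested only because some day 7 libraries of the macrophage course reached 1 TPM. With only the day 3 groups fitted 3 of 32 genes tested were higher and 18 lower, where 27.7% of all genes were higher and 30.2% lower, and leaving out 1 library at a time gave 6 to 8.

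Markers of other cells moved at day 3. Of 10 macrophage markers 9 were lower in knockout cells, and their summed level was 164 to 271 TPM in knockout libraries, against 660 to 889 TPM in controls. Of 9 neutrophil markers measured 1 was higher and 1 lower, with sums of 68610 to 76002 TPM in knockout libraries, against 37709 to 45409 TPM in controls. Here and at later stages such a sum follows the most abundant markers and does not show what most of a list did. No marker of either list was at 0 in a whole group. Their part in the values above was not tested.

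**Figure D3:**
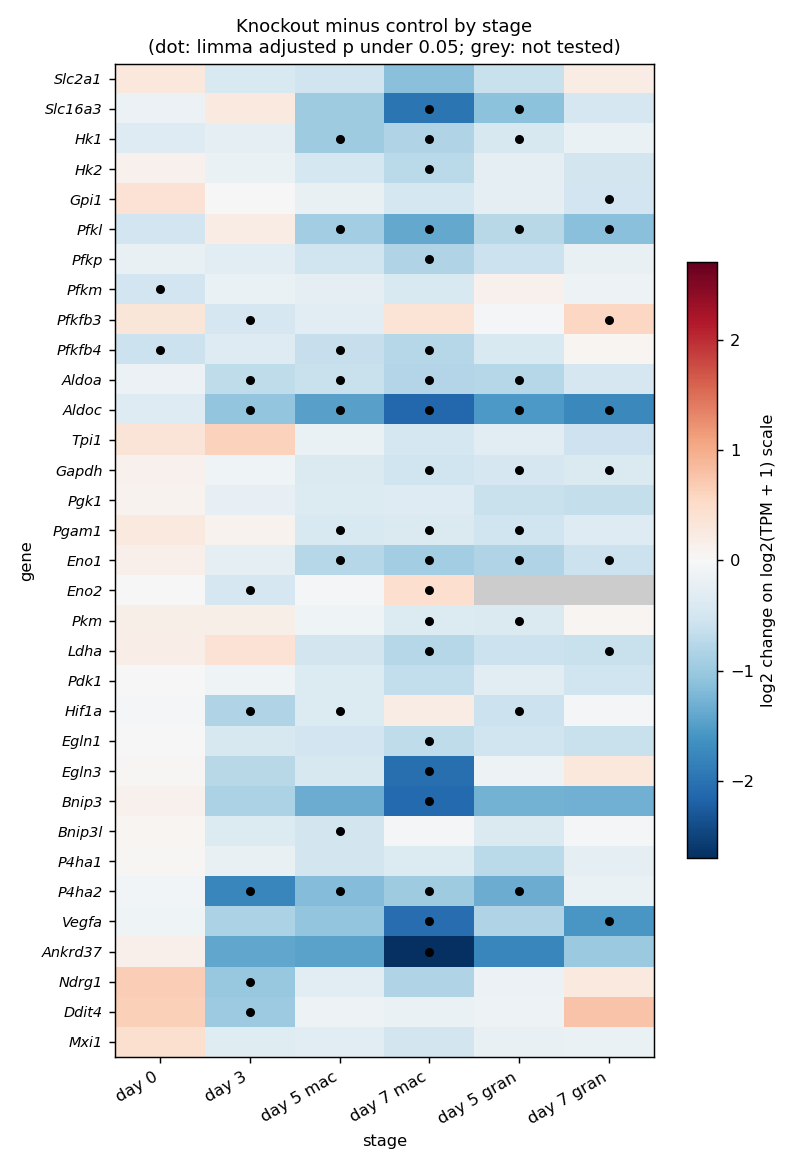
Knockout minus control on the log2(TPM + 1) scale for the 33 genes (rows) at 6 stages (columns), with lower values in blue, higher values in red, a dot where the adjusted p was under 0.05 and grey where a gene was not tested. Dots are most frequent at day 7 of the macrophage course, where 20 genes passed, and Aldoc has one in every column from day 3 on.

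At day 5 of the macrophage course the whole module lay on the low side in knockout cells, on a day when most genes did. All 33 differences were below 0, 10 passed as lower and none as higher, while 37.9% of all genes were lower and 5.11% higher (43.0% in either direction). The median was -0.49 for the 33 genes and -0.23 for all genes. With median-of-ratios scaling 20.0% of all genes were lower and 18.3% higher, and of the 33 genes Hk1, Aldoc, Eno1 and P4ha2 passed, all lower, with a median of -0.24 against -0.02 for all genes.

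Hexokinases trap glucose in the cell by phosphorylating it. Hk1 had 40.7, 22.9 and 24.5 TPM in knockout libraries, against 59.5, 52.5 and 56.4 TPM in controls, a difference of -0.96 ± 0.14 (adjusted p = 2.79e-05). Its partner Hk2, the inducible hexokinase, had 40.6, 19.7 and 20.8 TPM in knockout libraries, against 50.3, 28.7 and 32.1 TPM in controls, and its difference of -0.47 ± 0.25 did not pass (adjusted p = 0.131). Hk1 did not overlap between genotypes, and Hk2 did through knockout replicate 1. Aldoc had 19.5, 4.97 and 3.89 TPM in knockout libraries, against 25.5, 19.8 and 22.2 TPM in controls, with a difference of -1.47 ± 0.32 (adjusted p = 0.00112). Eno1, the main enolase, had 1283, 838 and 814 TPM in knockout libraries, against 2133, 1336 and 1486 TPM in controls, with a difference of -0.76 ± 0.18 (adjusted p = 0.00260). In both genes knockout replicate 1 was the closest to the controls.

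The hypoxia genes that passed at day 5 of this course were P4ha2, Bnip3l and Hif1a. P4ha2 had 3.38, 0.63 and 0.63 TPM in knockout libraries, against 8.18, 2.72 and 2.86 TPM in controls, a difference of -1.17 ± 0.31 (adjusted p = 0.00510). Bnip3l, a mitophagy receptor related to Bnip3, had 84.99, 60.6 and 56.4 TPM in knockout libraries, against 115.7, 73.9 and 97 TPM in controls, a difference of -0.50 ± 0.16 (adjusted p = 0.0156). Bnip3 had 208, 29.8 and 24.04 TPM in knockout libraries, against 274, 85.8 and 109 TPM in controls, a difference of -1.34 ± 0.58 that did not pass (adjusted p = 0.0676). Knockout replicate 1 lay above control replicates 2 and 3, while the knockout library was the lower one within each replicate number.

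Replicate numbers were taken to pair the libraries at this stage from the correlation of their values (r from 0.183 to 0.301), not from the labels. Read within these numbers, 23 of the 33 genes (69.7%) were lower in the knockout in all 3 pairs, against 57.2% of all genes tested. None was higher in all 3, against 11.5%. With the replicate number as a block 16 of the 33 genes passed, all lower, against 43.1% of all genes in either direction. That block was fitted over all groups of the course, and at the other stages the numbers did not pair knockout with control libraries. The block brought in Bnip3, at -1.34 ± 0.45 (adjusted p = 0.0215), and Slc16a3, at -0.95 ± 0.37 (adjusted p = 0.0472). Without the 4 replicate 1 libraries of day 5, left out after the data were seen, 20 genes were lower, where 29.2% of all genes were. Aldoc then gave -2.02 ± 0.18 (adjusted p = 2.19e-07) and Bnip3 -1.81 ± 0.41 (adjusted p = 0.00230), while Hif1a no longer passed. Single libraries mattered: 24 genes passed without knockout replicate 1, and 6 passed without control replicate 1, knockout replicate 2 or knockout replicate 3. With 1 library left out 4148 to 5209 of all genes passed. With only the 2 groups of this stage fitted 1 gene passed.

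**Figure D4:**
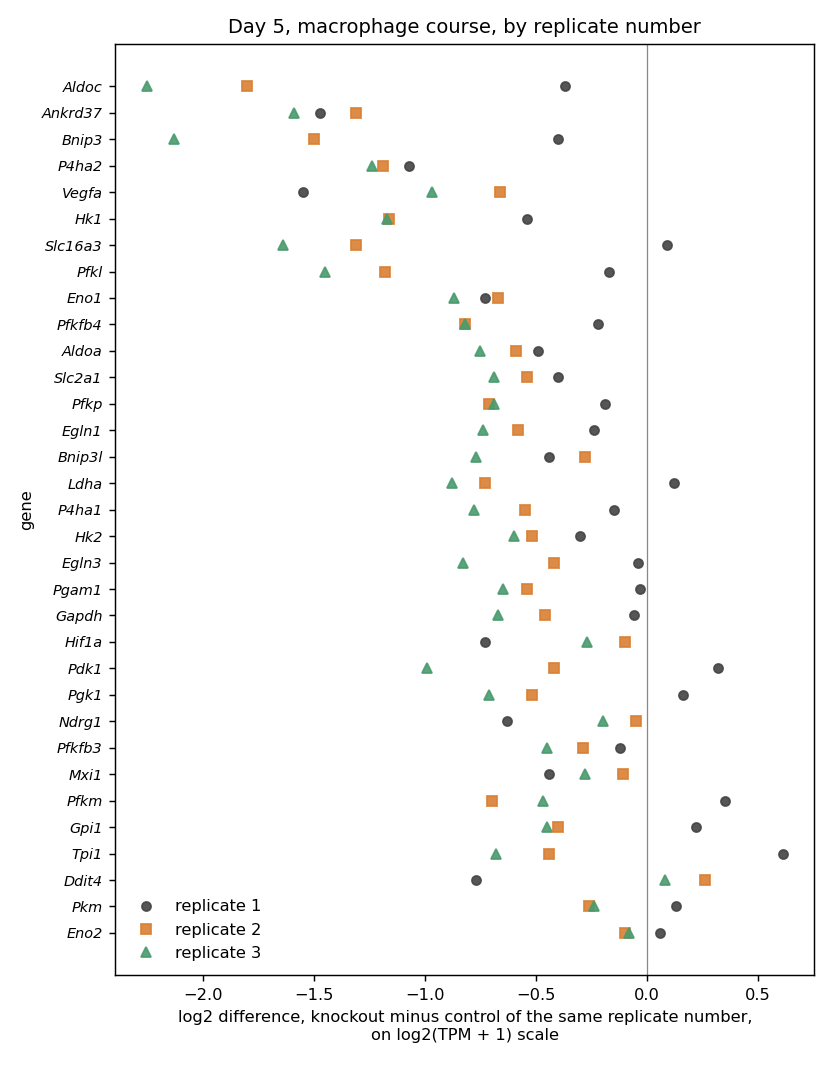
Knockout minus control within each replicate number at day 5 of the macrophage course, on the log2(TPM + 1) scale, for the 33 genes ordered by their mean. Replicates 2 and 3 lie left of 0 for nearly all genes, while replicate 1 lies nearer to 0 for genes such as Aldoc, Slc16a3 and Pfkl.

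Of the macrophage markers 8 of 10 were lower and 1 higher at this stage, with sums of 377 to 453 TPM in knockout libraries, against 802 to 1020 TPM in controls. The neutrophil markers summed to 111505 to 143116 TPM in knockout libraries, against 27301 to 95135 TPM in controls. S100a8 and S100a9 together took 17.8%, 23.4% and 23.4% of the TPM in knockout libraries, against 4.93%, 14.5% and 14.2% in controls, so that replicate 1 was the lowest in both genotypes. Whether these markers bear on the glycolytic values was not tested.

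The module was lowest against controls at day 7 of the macrophage course. Of the 33 genes 19 were lower in the knockout and 1 was higher, while 12.5% of all genes were lower and 27.4% higher (39.9% in either direction). The 19 were 13 of the 20 glycolysis and transport genes and 6 of the 13 hypoxia genes, and the median was -0.72 for the 33 genes, against 0.12 for all genes. With median-of-ratios scaling 21.4% of all genes were lower and 18.7% higher, and of the 33 genes 24 were lower and 1 higher, with a median of -0.87 against -0.01 for all genes.

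Of the transporters, Slc16a3 had 99.0, 38.4 and 35.7 TPM in knockout libraries, against 274, 254 and 124 TPM in controls, a difference of -1.97 ± 0.47 (adjusted p = 0.00243). Slc2a1, the glucose transporter GLUT1, had 45.5, 33.7 and 31.96 TPM in knockout libraries, against 115.5, 99.7 and 46.7 TPM in controls. All its knockout libraries lay under its controls, but the difference of -1.13 ± 0.45 did not pass (adjusted p = 0.0531). Hk1 had 34.7, 30.7 and 31.1 TPM in knockout libraries, against 61.2, 62.0 and 49.6 TPM in controls, a difference of -0.82 ± 0.14 (adjusted p = 0.000164). Hk2 passed here as well, at -0.72 ± 0.25 (adjusted p = 0.0278).

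Pfkl, the liver-type phosphofructokinase of the committed step, had 57.3, 31.1 and 29.5 TPM in day 7 knockout libraries of the macrophage course, against 114.9, 112.8 and 77.7 TPM in controls. Pfkp, the platelet-type form, had 54.9, 46.4 and 46.7 TPM in knockout libraries, against 94.7, 88.2 and 79.4 TPM in controls. No library overlapped for either, and the differences were -1.39 ± 0.30 for Pfkl (adjusted p = 0.00101) and -0.81 ± 0.23 for Pfkp (adjusted p = 0.00792). Pfkfb4 had 16.96, 17.2 and 16.4 TPM in knockout libraries, against 30.7, 32.3 and 25.7 TPM in controls, a difference of -0.77 ± 0.21 (adjusted p = 0.00596).

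Aldoc had 10.6, 8.24 and 7.87 TPM in knockout libraries, against 47.3, 45.5 and 34.7 TPM in controls. This was the smallest p of the 33 genes at the stage, with a difference of -2.13 ± 0.32 (adjusted p = 3.87e-05) and a mean of 8.89 ± 1.46 TPM in knockout libraries and 42.5 ± 6.81 TPM in controls (SD, n = 3 each). Aldoa had 1783, 1505 and 1463 TPM in knockout libraries, against 3147, 3050 and 2183 TPM in controls, a difference of -0.80 ± 0.22 (adjusted p = 0.00661). Eno1 had 892, 742 and 737 TPM in knockout libraries, against 1774, 1695 and 1144 TPM in controls, a difference of -0.94 ± 0.18 (adjusted p = 0.000491). The remaining enzymes that were lower were Gapdh, Pgam1, Pkm and Ldha, with differences of -0.54, -0.38, -0.36 and -0.76. Eno2 was the gene that was higher, with 0.81, 1.89 and 1.72 TPM in knockout libraries, against 0.58, 0.58 and 1.22 TPM in controls, a difference of 0.45 ± 0.14 at a low level (adjusted p = 0.0147). It passed the filter on low values only through the libraries with 1.89, 1.72 and 1.22 TPM, mostly knockout ones, so its call is a description only.

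The hypoxia genes with the widest gaps at day 7 were Ankrd37, Bnip3, Vegfa and Egln3. Bnip3 (chr7:138890836-138909519, minus strand, mm10), whose promoter stands above, had 52.7, 27.1 and 22.8 TPM in knockout libraries, against 242, 176 and 64.0 TPM in controls. The groups did not overlap, and the difference was -2.09 ± 0.58 (adjusted p = 0.00739). Ankrd37 (chr8:45996902-46005707, minus strand) had 13.7, 2.92 and 3.26 TPM in knockout libraries, against 73.8, 61.2 and 13.3 TPM in controls, a difference of -2.69 ± 0.80 (adjusted p = 0.0116). Vegfa (chr17:46016993-46032369, minus strand), the angiogenic growth factor, had 6.71, 1.89 and 1.35 TPM in knockout libraries, against 31.2, 26.9 and 3.16 TPM in controls, a difference of -2.05 ± 0.62 (adjusted p = 0.0128). For Ankrd37 and Vegfa the lowest control fell under the highest knockout library.

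Of the oxygen sensors, Egln3 had 26.2, 8.24 and 8.06 TPM in knockout libraries, against 105.9, 80.2 and 17.1 TPM in controls, a difference of -2.04 ± 0.62 (adjusted p = 0.0128). Egln1, the sensor that works under normal oxygen, had 21.1, 16.8 and 16.2 TPM in knockout libraries, against 34.8, 31.6 and 23.0 TPM in controls, a difference of -0.69 ± 0.24 (adjusted p = 0.0287). Egln3 overlapped through the lowest control and Egln1 did not overlap. Hif1a had 39.2, 47.5 and 48.5 TPM in knockout libraries, against 36.3, 37.2 and 43.6 TPM in controls, and its difference of 0.20 ± 0.12 did not pass (adjusted p = 0.202). Its libraries ran together in both genotypes. The Hif1a difference at day 7 exceeded that at day 3 by 1.02 ± 0.17 (adjusted p = 0.000162).

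Control replicate 3 was the lowest control for most of the 33 genes, so leaving it out raises their control means by construction. Without it, a choice made after the data were seen, 23 of 32 genes tested were lower at day 7 of the macrophage course. Of all genes 12.4% were. Ankrd37 then gave -3.44 ± 0.84 (adjusted p = 0.00281), Vegfa -3.00 ± 0.53 (adjusted p = 0.000188), Egln3 -2.82 ± 0.58 (adjusted p = 0.000790) and Slc2a1 -1.53 ± 0.48 (adjusted p = 0.0151), and Eno2 was no longer tested. Without knockout replicate 1, 20 of the 33 were lower and 2 higher. Only 8 genes passed without control replicate 1, 10 without control replicate 2 or knockout replicate 2, and 12 without knockout replicate 3. With 1 library left out 3356 to 5112 of all genes passed. Of the macrophage markers 3 were higher and 1 lower, with sums of 1830 to 1987 TPM in knockout libraries, against 1705 to 2553 TPM in controls. The neutrophil markers, of which 3 were higher and 5 lower, summed to 18195 to 23826 TPM in knockout libraries, against 21262 to 44146 TPM in controls. Their part was not tested.

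In the granulocyte course at day 5, 11 of 32 genes were lower in the knockout and none was higher, while 22.8% of all genes were lower and 9.20% higher. The median was -0.53 for the genes of the module and -0.09 for all genes. The 11 were 9 of 19 glycolysis and transport genes together with Hif1a and P4ha2. With median-of-ratios scaling 22.1% of all genes were lower and 18.0% higher, and 8 of the 32 were lower. The day 5 groups of both courses came from the same day 3 cells.

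Hif1a had 37.1, 40.9 and 39.6 TPM in knockout libraries at day 5 of this course, against 82.6, 49.4 and 51.0 TPM in controls, a difference of -0.59 ± 0.14 (adjusted p = 0.00327). P4ha2 had 1.84, 0.55 and 0.43 TPM in knockout libraries, against 9.74, 2.24 and 1.93 TPM in controls, a difference of -1.34 ± 0.33 (adjusted p = 0.00383). The genotypes did not overlap for either gene. Aldoc had 14.4, 4.05 and 3.51 TPM in knockout libraries, against 26.3, 18.9 and 15.7 TPM in controls, a difference of -1.56 ± 0.30 (adjusted p = 0.000490). Eno1 had 1138, 722 and 672 TPM in knockout libraries, against 2157, 1251 and 1095 TPM in controls, a difference of -0.81 ± 0.21 (adjusted p = 0.00588). Knockout replicate 1 passed the lowest control for Eno1 and stayed below it for Aldoc.

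Bnip3 had 181, 34.5 and 29.2 TPM in knockout libraries of day 5, granulocyte course, against 381, 97.8 and 72.2 TPM in controls, a difference of -1.27 ± 0.57 that did not pass (adjusted p = 0.0937). Ankrd37 had 23.1, 2.69 and 2.78 TPM in knockout libraries, against 111.2, 10.9 and 8.92 TPM in controls, a difference of -1.77 ± 0.73 that did not pass (adjusted p = 0.0708). Replicate 1 again held the highest value of each group. Without the replicate 1 libraries of day 5, 18 genes were lower, where 15.4% of all genes were, and both passed, Bnip3 at -1.38 ± 0.39 (adjusted p = 0.0125) and Ankrd37 at -1.54 ± 0.48 (adjusted p = 0.0226). Hif1a did not pass there. The count was 21 without knockout replicate 1, 17 without control replicate 3, 6 without knockout replicate 2 and 5 without knockout replicate 3. With 1 library left out 2689 to 3616 of all genes passed. With only the 2 groups of this stage fitted by limma 0 genes passed, and 7 had an unadjusted p under 0.05. Of the macrophage markers 9 of 10 were lower, with sums of 217 to 382 TPM in knockout libraries, against 665 to 960 TPM in controls, and the neutrophil markers summed to 106800 to 128427 TPM in knockout libraries, against 28208 to 95028 TPM in controls. Their part was not tested.

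At day 7 of the granulocyte course 7 of 32 genes were lower and 1 was higher in the knockout, while 12.0% of all genes were lower and 32.1% higher (44.1% in either direction). The median was -0.36 for the genes of the module, against 0.17 for all genes. With median-of-ratios scaling 15 were lower and 1 higher, where 23.9% of all genes were lower and 21.0% higher, with medians of -0.57 and -0.01. Aldoc had 6.68, 7.49 and 5.94 TPM in knockout libraries, against 27.2, 29.9 and 18.8 TPM in controls, a difference of -1.75 ± 0.30 (adjusted p = 0.000127). Pfkl had 49.0, 37.1 and 37.8 TPM in knockout libraries, against 101.6, 118.3 and 61.5 TPM in controls, a difference of -1.12 ± 0.26 (adjusted p = 0.00151). Both stood clear of their controls in every library.

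Pfkfb3 was the gene that was higher, with 20.8, 29.7 and 26.9 TPM in knockout libraries, against 16.7, 18.1 and 16.6 TPM in controls, a difference of 0.55 ± 0.15 (adjusted p = 0.00695). Vegfa had 8.61, 4.04 and 4.42 TPM in knockout libraries, against 25.0, 28.4 and 8.1 TPM in controls, a difference of -1.58 ± 0.48 (adjusted p = 0.0120). Its lowest control, replicate 3, lay under the highest knockout library. Gpi1, Gapdh, Eno1 and Ldha completed the lower genes, with differences of -0.51, -0.39, -0.58 and -0.61. Bnip3 had 52.6, 49.1 and 39.5 TPM in knockout libraries, against 159, 201 and 48.6 TPM in controls, and its difference of -1.29 ± 0.57 did not pass (adjusted p = 0.0707). Ddit4 gave 0.77 ± 0.37, which did not pass either (adjusted p = 0.0981).

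Without control replicate 3 of day 7, 14 genes of this course were lower and 1 higher, where 10.2% of all genes were lower. Bnip3 then gave -1.91 ± 0.58 (adjusted p = 0.0107). This library too was the lowest control for most of the genes, so wider differences without it follow from the choice. Counts of 3 came without control replicate 1, control replicate 2 or knockout replicate 2, and 4 without knockout replicate 3. With 1 library left out 3807 to 5661 of all genes passed. Of the macrophage markers 7 were lower and 2 higher, with sums of 860 to 936 TPM in knockout libraries, against 1077 to 1891 TPM in controls, and the neutrophil markers summed to 84483 to 92633 TPM in knockout libraries, against 68537 to 96526 TPM in controls. Their part was not tested.

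Over the 5 stages in culture, which share no library but come from the same day 3 cells, Aldoc was lower in the knockout at all 5. Of 11826 genes tested in both courses 420 were (3.55%). Pfkl, Aldoa, Eno1 and P4ha2 were lower at 4, as were 637 of the 11826, and Hk1, Gapdh, Pgam1 and Hif1a at 3, as were 1093. Of the 33 genes 7 were lower at none of the 5, as were 5847 of the 11826. Pgk1, phosphoglycerate kinase, whose promoter is printed above, was among them, with differences of -0.23, -0.36 and -0.35 at days 3, 5 and 7 of the macrophage course and of -0.61 and -0.64 at days 5 and 7 of the granulocyte course (adjusted p from 0.0663 to 0.491).

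The sum of the 33 genes put the steps together. It took 0.647% ± 0.00545 of the TPM in knockout libraries and 0.591% ± 0.0473 in controls at day 0 (SD, n = 3 each). At day 3 it took 1.97% ± 0.0691 in knockout libraries and 2.14% ± 0.0499 in controls. At day 7 of the macrophage course it took 1.07% ± 0.121 in knockout libraries and 1.64% ± 0.297 in controls, and at day 7 of the granulocyte course 0.968% ± 0.0248 in knockout libraries and 1.28% ± 0.279 in controls. These sums are set mostly by Aldoa, Gapdh, Pkm, Ldha and other abundant enzymes.

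**Figure D5:**
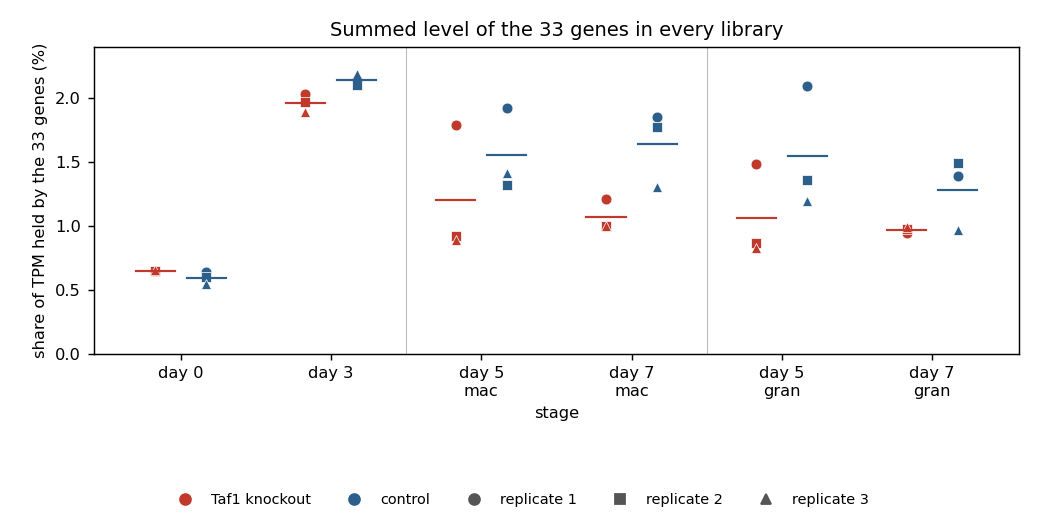
Share of each library's TPM held by the 33 genes, in percent from 0, with day and course on the x axis, knockout libraries left of controls, a shape for each replicate number and a bar at the group mean. The share is between 0.541% and 2.19%, is highest at day 3, and replicate 1 stands out at day 5 in all 4 groups.

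After day 3 the module came down in both genotypes. Between day 3 and day 5 of the macrophage course 24 of 33 genes fell in knockout cells, where 47.0% of all genes did and 8.68% rose (55.7% changed), and 16 fell in controls, where 24.6% did (50.3% changed). In the granulocyte course 20 of 32 fell in knockout cells, where 11.2% of all genes did and 3.57% rose (14.8% changed), and 17 fell in controls, where 20.8% did (44.3% changed). No gene of the 33 rose in any of the 4 comparisons, all of which share their day 3 libraries with another. Pfkm fell in all 4, by 1.47 ± 0.17 in knockout cells and 1.36 ± 0.17 in controls of the macrophage course, and by 0.83 ± 0.15 in knockout cells and 1.12 ± 0.15 in controls of the granulocyte course. Replicate 1 of day 5 counts here too: without it 26 of the genes passed in macrophage course controls and 28 in granulocyte course controls. Other single libraries moved the counts as well: 10 passed in macrophage course controls without replicate 2 of day 5, 11 and 9 in granulocyte course controls without replicate 2 and without replicate 3 of day 5, and 13 in granulocyte course knockout cells without replicate 3 of day 5. With median-of-ratios scaling 11 fell and 1 rose in macrophage course knockout cells (19.8% of all genes fell and 22.9% rose), and 19 fell in granulocyte course knockout cells, where 9.37% of all genes rose and a slightly smaller share fell.

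From day 5 to day 7 few of the genes changed. In the macrophage course 3 of 33 rose and 4 fell in knockout cells, where 58.1% of all genes rose and 8.56% fell (66.6% changed), and 2 rose and 3 fell in controls, where 22.9% rose and 16.2% fell (39.1% changed). Mxi1, an antagonist of MYC, fell in knockout cells by 1.30 ± 0.21 (adjusted p = 2.69e-05) and in controls by 1.09 ± 0.21 (adjusted p = 0.000380). Aldoc rose in controls by 0.88 ± 0.32 (adjusted p = 0.0336), and in knockout cells Egln3 fell by 1.75 ± 0.62 (adjusted p = 0.0174). In the granulocyte course 4 of 32 rose and 3 fell in knockout cells (41.8% of all genes changed), and 2 fell in controls (38.0%). Pfkfb3 and Pfkfb4, which are among the enzymes that set fructose 2,6-bisphosphate, rose in those knockout cells by 0.80 ± 0.15 (adjusted p = 0.000335) and 0.92 ± 0.21 (adjusted p = 0.00149). These counts depend on the libraries that stood apart. Without replicate 1 of day 5, 11 genes rose and 1 fell in knockout cells of each course, and 12 rose and 3 fell in macrophage course controls. The median change then was 0.25 in knockout cells of the macrophage course and 0.27 in those of the granulocyte course, against -0.16 and -0.02 with all libraries. With median-of-ratios scaling 1 gene rose and 16 fell in macrophage course knockout cells (27.2% of all genes rose and 23.5% fell), 4 rose and 4 fell in granulocyte course knockout cells (27.1% and 22.6%), and 2 rose in granulocyte course controls (23.2% and 18.2%).

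Single libraries moved these small counts further. In macrophage course knockout cells 3 genes passed without replicate 2 of day 7 and 2 without replicate 3, and in granulocyte course knockout cells 4 passed without replicate 2 of day 7. In controls 8 passed in the macrophage course without replicate 1 of day 5. In granulocyte course controls limma called 5 without replicate 3 of day 5, 1 without replicate 1 of day 7, and 0 without replicate 1 of day 5 or replicate 3 of day 7, where 3 and 2 genes had an unadjusted p under 0.05.

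The 2 courses were set against each other at day 7, macrophage minus granulocyte. In knockout cells 7 of 33 genes were higher in the macrophage course and 8 lower, where 37.5% of all genes were higher and 15.4% lower (53.0% changed). In controls 8 were higher and 3 lower, where 36.3% of all genes were higher and 10.3% lower (46.7% changed). Tpi1, Pgam1, Ldha, Pdk1 and P4ha2 were higher and Pfkfb3 and Pfkfb4 lower in the macrophage course in either genotype. P4ha2 averaged 3.47 ± 1.01 TPM in the macrophage course and 1.26 ± 0.425 TPM in the granulocyte course of the knockout, and 7.53 ± 0.629 TPM and 1.56 ± 0.523 TPM in controls (SD, n = 3 each). With median-of-ratios scaling 1 gene was higher and 11 were lower in knockout cells (25.8% of all genes were higher and 25.6% lower), and 1 was higher and 3 were lower in controls (19.6% and 19.8%). Same-numbered libraries correlated here (lowest r 0.267 in controls and 0.323 in knockout cells), but differently numbered ones reached 0.433 and 0.346. Whether the numbers pair these libraries is therefore unsettled. With the block 8 genes were higher and 10 lower in knockout cells, where 45.3% of all genes were higher and 18.2% lower. In controls 12 were higher and 3 lower (46.5% and 12.2% of all genes). Without granulocyte course knockout replicate 2 or replicate 3, 9 and 8 passed in knockout cells.

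Slc16a3, Hk1, Slc2a1, Egln3, Ndrg1 and Ddit4 were lower in the macrophage course in knockout cells and did not pass in controls, but only a test of the difference bears on that contrast. Tested as the knockout difference in the macrophage course minus that in the granulocyte course at day 7, 1 of 33 genes passed, against 3.26% of all genes. Pfkfb4 gave -0.83 ± 0.18 (adjusted p = 0.0302): it had 16.96, 17.2 and 16.4 TPM in macrophage course knockout libraries, against 30.7, 32.3 and 25.7 TPM in their controls, and 38.6, 55.3 and 51.1 TPM in granulocyte course knockout libraries, against 47.7, 45.8 and 44.3 TPM in theirs. With the block 2 genes passed, and without control replicate 3 of day 7 there were 6, all negative. Without granulocyte course knockout replicate 1 there were 3, without macrophage course control replicate 3 there were 5, and without macrophage course knockout replicate 1 there was 1. Without any other single library limma called 0, with 5 to 10 genes at an unadjusted p under 0.05.

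Between day 3 and day 7 the knockout differences changed for several enzymes. In the macrophage course 3 of 33 genes moved up and 8 down, against 21.8% and 13.4% of all genes (35.2% in either direction), and in the granulocyte course 4 of 32 moved up and 3 down, against 22.3% and 11.4% (33.8% in either direction). With median-of-ratios scaling 3 moved up and 8 down in the macrophage course (20.6% and 21.5% of all genes), and 4 up and 4 down in the granulocyte course (20.7% and 23.0%). Without 1 library the macrophage course count fell to 5 (knockout replicate 2 or 3 of day 7), 6 (control replicate 1 of day 7) or 7 (control replicate 2 of day 7, control replicate 2 or 3 of day 3, or any knockout library of day 3). The 2 courses share their day 3 libraries in these comparisons. Pfkl, Tpi1 and Ldha moved down and Pfkfb3 and Hif1a moved up in both. Pfkl, which had a difference of 0.20 at day 3, moved by -1.59 ± 0.42 to day 7 of the macrophage course (adjusted p = 0.00610) and by -1.32 ± 0.36 to day 7 of the granulocyte course (adjusted p = 0.00821).

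Other genes of the 2 pathways, in lists set up by name, showed mixed changes. Of 33 further hypoxia genes tested, 1 was higher and 0 lower in the knockout at day 0, 3 were higher and 14 lower at day 3, 1 and 11 at day 5 of the macrophage course, 6 and 8 at day 7 of it, 2 and 9 at day 5 of the granulocyte course and 7 and 4 at day 7 of it. Of all genes 13.1% were higher and 10.2% lower at day 0, and 26.5% and 26.7% at day 3. The shares were 5.11% and 37.9% at day 5 of the macrophage course and 27.4% and 12.5% at day 7 of it. In the granulocyte course they were 9.20% and 22.8% at day 5 and 32.1% and 12.0% at day 7. Epas1, which encodes HIF-2 alpha, was lower at each of the later stages. Its difference was -1.85 ± 0.18 at day 5 (adjusted p = 2.07e-07) and -1.29 ± 0.18 at day 7 (adjusted p = 1.73e-05) of the macrophage course, and -1.59 ± 0.21 at day 5 (adjusted p = 7.71e-06) and -0.95 ± 0.21 at day 7 (adjusted p = 0.00117) of the granulocyte course. Ndufa4l2, a mitochondrial protein induced by HIF, had a difference of -2.54 ± 0.18 at day 3 (adjusted p = 1.74e-09), and Plod1, a collagen lysyl hydroxylase, one of -1.36 ± 0.16 (adjusted p = 9.62e-07). Car12, a carbonic anhydrase, was higher there by 0.87 ± 0.11 (adjusted p = 2.33e-06).

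Of 14 further glycolysis and glucose transport genes tested, 3 were higher and 1 lower in the knockout at day 0, 6 were higher and 2 lower at day 3, 1 and 3 at day 5 of the macrophage course, 3 and 2 at day 7 of it, 2 and 0 at day 5 of the granulocyte course, and 5 and 2 at day 7 of it. These counts stand beside the shares of all genes given for the further hypoxia genes. Slc2a3, the glucose transporter GLUT3, was lower at day 3, with a difference of -1.54 ± 0.31 (adjusted p = 0.000364). Slc16a1, which carries lactate and pyruvate, was higher there by 0.92 ± 0.13 (adjusted p = 1.11e-05). Eno3, the muscle enolase, was higher at day 7 by 0.73 in the macrophage course (adjusted p = 0.00146). In the granulocyte course it was higher by 1.13 ± 0.20 (adjusted p = 0.000207). Ldhb, the heart-type lactate dehydrogenase subunit, was higher at day 3 by 0.62 ± 0.19 (adjusted p = 0.00906). At day 7 it was lower in both courses. The differences were -0.65 ± 0.19 in the macrophage course (adjusted p = 0.00962) and -1.10 ± 0.18 in the granulocyte course (adjusted p = 7.85e-05).

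Aldoa, Gapdh, Ldha, Pgam1, Pgk1 and Bnip3l have named pseudogenes in GENCODE M21, and Eno1 has a near-identical copy, Eno1b. How reads were divided between such copies is not known here, so the levels of these genes are uncertain to that extent. Eno1b itself passed at no stage in limma (adjusted p from 0.0571 to 0.552). Its differences were 0.25 at day 0 and -0.19 at day 3. They were -0.20 and -0.61 at days 5 and 7 of the macrophage course, and -0.37 and -0.21 at those days of the granulocyte course.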

How the data were processed

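Total RNA libraries were made with a KAPA stranded kit, per the labels' protocols. The authors deposited 2 tables of gene-level TPM, 1 for each course, which share the 12 day 0 and day 3 libraries. The submitters' processing notes name RSEM, DESeq2 1.38.3 and mm10, with no version for RSEM. TPM keeps no depth, so no counting error could be given.

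Tests used limma 3.58.1 (R 4.3.3) with a mean-variance trend on log2(TPM + 1), which understates changes of low genes. Each gene had a single estimate of its spread, pooled over all groups of the fit. A gene was tested at 1 TPM or more in at least 3 libraries of the fit: 11953 genes for the macrophage course, 11905 for the granulocyte course and 11269 for the day 7 libraries. P-values were adjusted by Benjamini-Hochberg over all of them. The procedure was tested on simulated data in which 200 genes were changed by 1 on the log2 scale. In the knockout comparisons 93.0% to 96.0% of them were recovered, and in those between courses 87.5% to 88.0%. In those of knockout differences 74.5% to 83.0% were recovered. Over all these comparisons 1.88% to 8.02% of the genes called were false. In the data far more than 200 genes passed in each knockout comparison. The genes described here also had a median standard deviation within a group of 0.38, against 0.16 for all genes tested. The simulated rates therefore may not hold for them.

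The members and lists were chosen with earlier results of these data known. Library values were to be given for up to 8 called genes per comparison with the smallest p and for their paralogues, and up to 3 genes of another list. Exceptions, such as Tpi1, Ldha, Ankrd37, Bnip3, Slc2a1, Vegfa and Egln3, were chosen after their values were seen. Of the listed symbols 1 marker had no row. Replicate numbers were taken to pair libraries where the deviations of every same-numbered pair correlated above 0.1. This held for knockout against control at day 5 of the macrophage course (lowest r 0.183), for macrophage against granulocyte libraries at day 7 (lowest r 0.267 in controls and 0.323 in knockout cells) and for knockout cells between days 3 and 5 and days 5 and 7. Same-numbered pairs all exceeded differently numbered ones only in the macrophage course, at day 5 and in knockout cells between days 3 and 5. At day 7 differently numbered libraries reached 0.433 in controls and 0.346 in knockout cells, so the numbers may not pair them. Promoters were read from RefSeq tables (GRCm38.p6). Coordinates are GENCODE M21.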

Additional observations from a re-analysis of the deposited data

Results flagged for a closer look

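For 24 gene results the knockout difference itself differed between stages or courses by an interaction test in limma (adjusted p under 0.05 over all genes), on the log2(TPM + 1) scale. Between day 0 and day 3 the difference moved down for Pfkfb3 (-0.79), Hif1a (-0.78), P4ha2 (-1.68), Ndrg1 (-1.70) and Ddit4 (-1.62).

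Between day 3 and day 7 of the macrophage course it moved down for Slc16a3 (-2.23), Hk1 (-0.55), Pfkl (-1.59), Tpi1 (-1.09), Pgam1 (-0.49), Eno1 (-0.69), Pkm (-0.51) and Ldha (-1.15). It moved up for Pfkfb3 (0.82), Eno2 (0.92) and Hif1a (1.02). Between day 3 and day 7 of the granulocyte course it moved down for Pfkl (-1.32), Tpi1 (-1.19) and Ldha (-1.0), and up for Pfkfb3 (1.01), Hif1a (0.79), P4ha2 (1.58) and Ddit4 (1.75). Between the courses at day 7 it was lower in the macrophage course for Pfkfb4 (-0.83). Of all genes 32.3% passed between days 0 and 3, and 35.2% and 33.8% between day 3 and day 7 of the macrophage and granulocyte course. Between the courses 3.26% did. In none of these comparisons did the genes of the module pass more often than all genes.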

How the results depend on the processing

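Counts of the module's genes past the threshold depended on the fit, and the causes were not tested. With only the contrast's groups fitted they were 7 at day 0, 4 of them higher (2 as reported, both lower), 21 at day 3, 3 of them higher (8, all lower), 1 at day 5 of the macrophage course (10), 0 at day 5 of the granulocyte course (11; 7 at an unadjusted p under 0.05), 14 for the difference between days 0 and 3 (5), 10 for granulocyte course controls from day 3 to day 5 (17) and 0 from day 5 to day 7 (2). With the replicate block in such a fit they were 7, 24 and 16 at day 0, day 3 and day 5 of the macrophage course, 16 at day 7 of the granulocyte course (8), 22 between courses in controls (11) and 0 for granulocyte course controls from day 5 to day 7. The replicate block in the full fit gave 16 at day 5 of the macrophage course and 2 for the difference between courses (1). In comparisons where numbers do not pair the libraries it gave 2 at day 0, 10 at day 3, 24 and 14 at day 7 of the macrophage and day 5 of the granulocyte course, and 12 at day 7 of the granulocyte course.

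Median-of-ratios scaling gave 4 at day 5 of the macrophage course, 16 at day 7 of the granulocyte course, 12 and 17 in macrophage course knockout cells from day 3 to 5 (24) and 5 to 7 (7), and 4 between courses in controls, and turned the change of Hif1a from day 5 to 7 in macrophage course knockout cells to -0.12 (0.30 as reported). No filter gave 1 at day 0, 5 at day 7 of the granulocyte course and 7 for the difference between day 3 and day 7 of the macrophage course (11). A pseudocount of 5 TPM gave 1 at day 0, one of 0.1 TPM gave 1 for granulocyte course controls from day 5 to 7, and leaving out structural RNA and histone genes gave 2 for the difference between courses.

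Settings added after the data were seen left out libraries that had been picked by the values of these genes. Without replicate 1 of day 5 the counts were 20 and 18 at day 5 of the macrophage and granulocyte course, 26 and 28 in controls of each from day 3 to 5, and, from day 5 to 7, 12 in knockout cells of either course and 15 and 4 in controls of the macrophage and granulocyte course. The median change from day 5 to 7 then turned to 0.25 in macrophage course knockout cells, 0.27 in granulocyte course knockout cells and 0.17 in granulocyte course controls (-0.16, -0.02 and -0.22 as reported), as it did without the group's own replicate 1. With 1 library left out these medians ranged from -0.30 to 0.25, -0.22 to 0.27 and -0.42 to 0.17. Without control replicate 3 of day 7 the counts were 15 at day 7 of the granulocyte course, 6 for the difference between courses and 0 for granulocyte course controls from day 5 to 7, whose median was 0.06.

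Leaving out 1 library at a time gave 0 to 2 at day 0, 6 to 8 at day 3, 6 to 24 and 8 to 23 at days 5 and 7 of the macrophage course, and 5 to 21 and 3 to 15 at those days of the granulocyte course. From day 0 to 3 it gave 24 to 27 in knockout cells and 31 to 32 in controls, from day 3 to 5 16 to 29 and 10 to 21 in the macrophage and 13 to 22 and 9 to 27 in the granulocyte course, and from day 5 to 7 2 to 10 and 4 to 8, then 4 to 10 and 0 to 5. Between courses it gave 8 to 12 in knockout cells and 8 to 14 in controls, and for the differences 5 to 6 (days 0 and 3), 5 to 13 and 5 to 9 (day 3 and day 7 of the macrophage and granulocyte course) and 0 to 5 (between courses). In the same settings 1913 to 2594 of all genes passed at day 0 and 5430 to 5999 at day 3. Ranges for the later knockout stages are given above. For the differences 3122 to 3865 (days 0 and 3), 3471 to 4306 and 3164 to 4588 (day 3 and day 7 of each course) passed. Between courses 108 to 959 did. Groups left with 2 libraries were tested in fits that pool the spread over groups.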

Other observations

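The counts in this section stand beside the shares of all genes given at each stage for the further hypoxia genes. Pyruvate leaves glycolysis for the mitochondrion through carriers and the pyruvate dehydrogenase complex. Of 12 genes of pyruvate oxidation tested, 2 were higher and 2 lower in the knockout at day 0, 6 and 3 at day 3, 0 and 5 at day 5 of the macrophage course, 7 and 2 at day 7 of it, 1 and 4 at day 5 of the granulocyte course, and 6 and 2 at day 7 of it. Pdha1, the catalytic subunit of that complex, was lower at every stage, with limma differences of -0.66 ± 0.08 at day 0 (adjusted p = 6.13e-06), -0.55 at day 3, -0.82 and -0.33 at days 5 and 7 of the macrophage course, and -0.78 and -0.40 at those days of the granulocyte course.

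Of 8 genes of the pentose phosphate pathway, which branches from glycolysis to make NADPH and ribose, 4 were higher and none lower in the knockout at day 3. G6pdx, its first enzyme, was higher by 0.82 ± 0.15 there (adjusted p = 0.000162), and Tkt, transketolase, by 0.42 ± 0.08 (adjusted p = 0.000121). At day 0, 2 were higher and 0 lower. At days 5 and 7 of the macrophage course 1 and 2 were higher and 2 and 0 lower, and at those days of the granulocyte course 1 and 3 were higher and 2 and 3 lower.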
